A study of Homo sapiens with 2 samples.

Results

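A set of 10 tight junction genes was described across the cell lines of a single-cell RNA-seq library. They are the claudins CLDN1, CLDN4 and CLDN7, the membrane proteins F11R, OCLN, MARVELD2 and MARVELD3, and the cytoplasmic proteins TJP1, INADL and CGN. They were taken by symbol from the 33694 genes of the deposited table, and all 10 were found. The lines come from C1, a stably epithelial line derived from HMLER, which are human breast epithelial cells made immortal and then transformed with the RAS oncogene. C1-sgKMT2D cells carry a guide against KMT2D, an enzyme that methylates histone H3 at enhancers. C1-sgEED cells carry one against EED, which the Polycomb complex PRC2 needs to methylate histone H3 at silenced genes, and C1-sgControl cells carry a control guide. The HMLER background is common to all lines. The question addressed is whether epithelial cells without KMT2D or EED become plastic and give rise to mesenchymal ones. The libraries are titled as mixed clones and the number of clones behind each line is not given. A mix of clones and cells that switched cannot be told apart here.

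Tight junctions seal the space between neighbouring epithelial cells near their apical side. Claudins form the paracellular barrier strands, OCLN and its MARVEL-domain relatives MARVELD2 and MARVELD3 sit beside them, and F11R (also called JAM-A) is an immunoglobulin-like adhesion molecule. TJP1 (ZO-1), INADL (also called PATJ) and CGN (cingulin) are the cytoplasmic plaque that joins the strands to actin and to polarity complexes. In an epithelial-to-mesenchymal transition these junctions are dismantled. ZEB and SNAI factors, which bind the E-box CACCTG, are known repressors of several claudins and of OCLN.

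The cells had been stained with hashtag antibodies and pooled, so each line is 1 sample of 1 library, and differences between lines cannot be checked against replicates. All intervals are at 95% and reflect counting error alone, and no test was made. The cells that passed the filter with 1 hashtag were 2349 in C1-sgKMT2D (13963548 UMIs, median 5526 per cell), 2341 in C1-sgEED (10276177 UMIs, median 3919) and 1721 in C1-sgControl (9928063 UMIs, median 5672). The filter had removed 27.2% of the C1-sgControl cells and at most 6.70% of those of each knockout. One more hashtag, hashtag 2, marked 1935 cells with 11301572 UMIs. The labels name no line for it, so its values are described and set against no line. Transcripts of the targeted genes stood at 13.3 CPM in C1-sgEED and 13.6 CPM in C1-sgControl for EED, and at 5.01 CPM in C1-sgKMT2D and 4.63 CPM in C1-sgControl for KMT2D. Within C1-sgEED, EED stood at 5.75 CPM (27 UMIs) in VIM-rich and 20.1 CPM (109 UMIs) in KRT17-rich cells, the ranges introduced below, against 13.1 CPM in KRT17-rich C1-sgControl cells. The place of the edits is not given, so a 3' count checks these labels little. All 10 epithelial markers reached 5 CPM in C1-sgControl. Of 8 endothelial markers 0 did so in any group, with CDH5 and CLDN5 at 0 in every group. Of 8 immune markers 1 did so, CD68, and PTPRC and CD3E were at 0. Of 7 neural markers at most 1 did so, SYT1, and SOX10 was at 0.

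Each line was split by the share of KRT17 in its KRT17 and VIM UMIs. KRT17 is a basal keratin and VIM, vimentin, the filament protein of mesenchymal cells. Cells with a share over 0.5 are called KRT17-rich and those under 0.5 VIM-rich. These are ranges of a score, not cell types, and 138 C1-sgKMT2D, 72 C1-sgEED and 58 C1-sgControl cells lay within 0.05 of the bound. VIM-rich cells made up 48.7% of C1-sgKMT2D (1143 cells), 50.9% of C1-sgEED (1192 cells) and 3.95% of C1-sgControl (68 cells). In hashtag 2 they made up 67.5% (1306 cells). The ranges differ in depth: medians were 4577 UMIs in VIM-rich and 6727 in KRT17-rich C1-sgKMT2D cells, and 3484 in VIM-rich and 4430 in KRT17-rich C1-sgEED cells. Summed mesenchymal markers stood at 418 CPM in VIM-rich and 46.0 CPM in KRT17-rich C1-sgKMT2D cells, and at 853 CPM in VIM-rich and 149 CPM in KRT17-rich C1-sgEED cells. The 68 VIM-rich C1-sgControl cells had 106 CPM, with 6 of 10 mesenchymal markers at 0, against 72.7 CPM in KRT17-rich C1-sgControl cells.

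Sequence before the start sites is shown for TJP1, which was not low in VIM-rich C1-sgEED cells, and for CLDN1, CLDN7 and INADL, which were low in the VIM-rich cells of both knockouts. For CLDN4 the window lies wholly in annotated exons and is not shown. The sequences are from RefSeq (GRCh38.p14) and run 5′ to 3′ on the gene's strand, with bases of annotated exons left out except for CLDN7, whose short window before its second start lies in annotated exon sequence. Capitals mark CACCTG or its reverse complement CAGGTG, and CLDN1 has none. The CLDN7 window of 30 bases holds 2 matches and is no measure of their density. The 250 bases before the first CLDN7 start, and those before the other TJP1 starts, hold 0 matches and are not shown.
CLDN1 (chr3:190322476-190322696, minus strand): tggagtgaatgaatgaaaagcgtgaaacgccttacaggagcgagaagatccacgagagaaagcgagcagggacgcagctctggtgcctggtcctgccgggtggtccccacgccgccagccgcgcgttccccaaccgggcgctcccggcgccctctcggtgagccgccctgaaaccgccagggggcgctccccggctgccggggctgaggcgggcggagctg
CLDN7 (chr17:7262480-7262509, minus strand): ctacatatactCAGGTGcgcccCACCTGtc
TJP1 (chr15:29969050-29969299, minus strand): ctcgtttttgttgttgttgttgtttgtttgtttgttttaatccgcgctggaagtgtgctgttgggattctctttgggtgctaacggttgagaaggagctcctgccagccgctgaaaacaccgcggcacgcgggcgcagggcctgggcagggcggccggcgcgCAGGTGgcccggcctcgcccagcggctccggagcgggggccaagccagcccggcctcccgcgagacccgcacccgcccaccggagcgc
INADL (chr1:61742230-61742405, plus strand): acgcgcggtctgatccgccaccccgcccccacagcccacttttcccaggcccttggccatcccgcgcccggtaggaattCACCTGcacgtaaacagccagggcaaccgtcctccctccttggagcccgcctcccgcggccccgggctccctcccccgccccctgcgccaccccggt

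The tables gave 13 start sites for 8 of the 10 members. F11R and MARVELD3 were not matched. In the 250 bases before each start, CACCTG occurred on either strand for 4 members: at the second CLDN7 start (4 matches, 2 of them in the window shown), at both OCLN starts, at the first TJP1 start and at the INADL start. It occurred in 5 of the 13 sequences, against 17.5% of 35116 promoters in the whole table, and 4 or more matches occurred in 0.122% of that table. CLDN1 and CLDN4 had no match. The grainyhead-like motif AACCGGTT occurred in none of the 13, against 0.117% of all promoters, and its looser form AACNNGTT occurred once, before CGN, against 3.00%. A match describes these letters only. Which start these cells use was not read, and no relation of a match to the levels given below was tested.

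Levels are CPM, the UMIs of a gene scaled to a common total of gene UMIs. Averaged over the 4 hashtags, TJP1 had the highest level at 45.5 CPM, followed by CLDN4 at 29.4 CPM and CLDN1 at 26.2 CPM. OCLN at 3.57 CPM and CGN at 1.51 CPM fell short of the 5 CPM asked of a gene for counting, so 8 of the 10 members were counted. A 3' count takes about 1 tag per transcript, so these levels carry no correction for length.

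**Figure D1:**
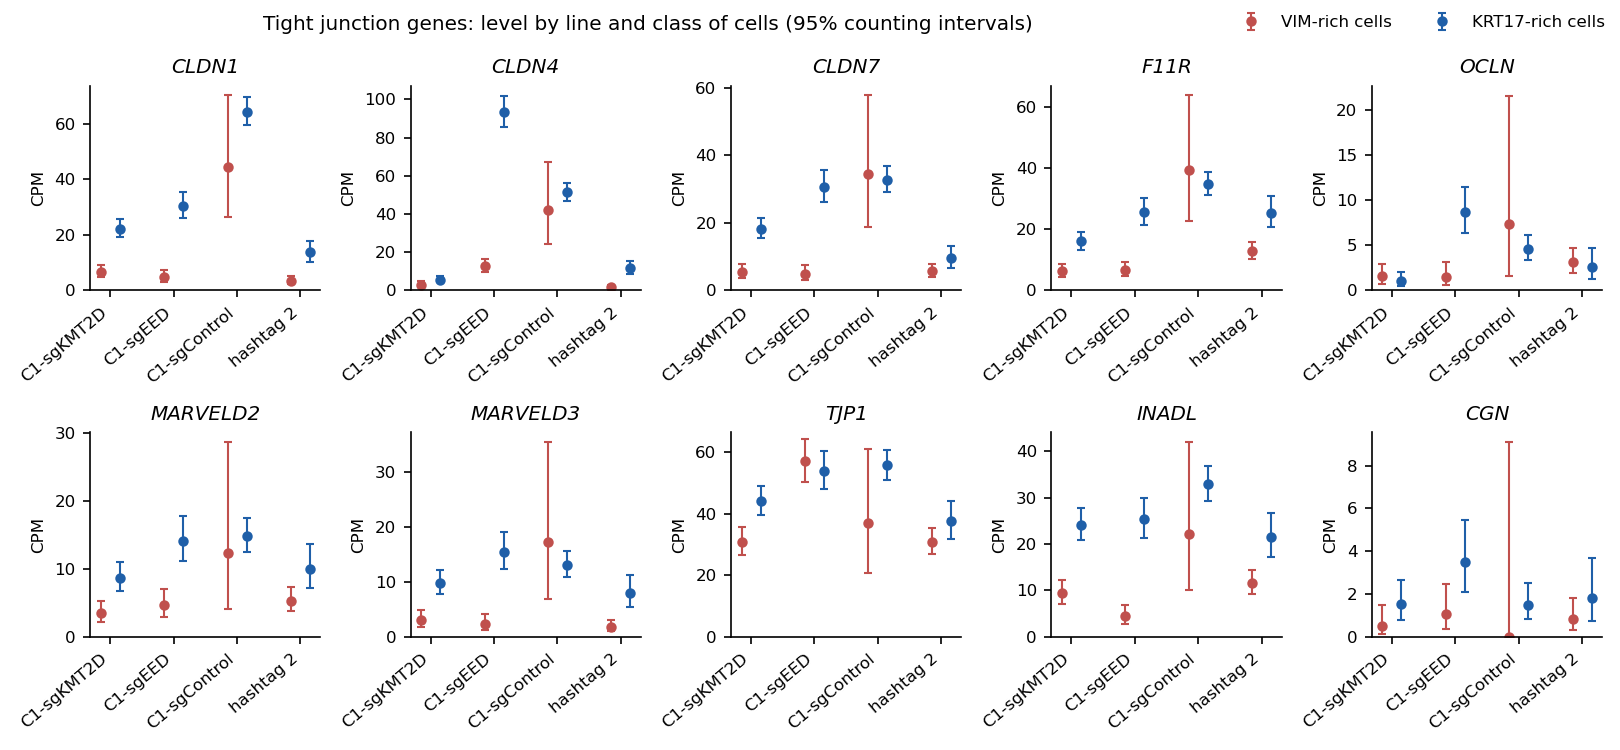
Level of each of the 10 genes in CPM (vertical axis, linear, from 0) in VIM-rich (red) and KRT17-rich (blue) cells of C1-sgKMT2D, C1-sgEED, C1-sgControl and hashtag 2. Points are summed UMIs and bars 95% counting intervals; red points lie below blue ones in the knockouts for most genes, TJP1 in C1-sgEED being level (57.1 and 53.9 CPM), and the 68 VIM-rich C1-sgControl cells have wide intervals.

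CLDN1, a barrier-forming claudin (ENSG00000163347, GRCh38 chromosome 3, 190305701 to 190322475, minus strand), was lower in both knockouts than in the control and lowest in VIM-rich cells. It was read at 6.68 CPM (4.75 to 9.14) in VIM-rich and 22.1 CPM (19.0 to 25.7) in KRT17-rich C1-sgKMT2D cells. In C1-sgEED it was read at 4.68 CPM (2.94 to 7.09) in VIM-rich and 30.4 CPM (25.9 to 35.4) in KRT17-rich cells. C1-sgControl cells had 44.4 CPM (26.3 to 70.1) when VIM-rich and 64.3 CPM (59.3 to 69.7) when KRT17-rich. Both groups of the control stood above all groups of the knockouts, although the VIM-rich control interval touches that of KRT17-rich C1-sgEED cells. Within C1-sgEED the ratio of VIM-rich over KRT17-rich cells was 0.154 (0.0941 to 0.241), and within C1-sgKMT2D it was 0.302 (0.208 to 0.429). Even KRT17-rich cells had less CLDN1 than KRT17-rich C1-sgControl cells, with ratios of 0.344 (0.289 to 0.408) in C1-sgKMT2D and 0.472 (0.395 to 0.562) in C1-sgEED.

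CLDN4, a claudin of tight epithelia that limits sodium passage (ENSG00000189143, chromosome 7, 73799542 to 73832693, plus strand), separated the knockouts. VIM-rich C1-sgKMT2D cells had 2.91 CPM (1.70 to 4.66, from 17 UMIs) and KRT17-rich C1-sgKMT2D cells 5.54 CPM (4.02 to 7.43). VIM-rich C1-sgEED cells had 12.8 CPM (9.75 to 16.4) and KRT17-rich C1-sgEED cells 93.5 CPM (85.5 to 102). In the control the level was 41.9 CPM (24.4 to 67.1) in VIM-rich and 51.4 CPM (46.9 to 56.2) in KRT17-rich cells. KRT17-rich C1-sgEED cells were thus the highest group and both C1-sgKMT2D groups lay under 8 CPM. Over KRT17-rich C1-sgControl cells the ratio was 0.108 (0.0773 to 0.147) in KRT17-rich C1-sgKMT2D cells and 1.82 (1.60 to 2.07) in KRT17-rich C1-sgEED cells. The ratio of VIM-rich over KRT17-rich cells of the same line was 0.137 (0.103 to 0.179) in C1-sgEED and 0.526 (0.282 to 0.940) in C1-sgKMT2D.

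CLDN7, a claudin of the lateral membrane as well as the junction (ENSG00000181885, chromosome 17, 7259903 to 7263983, minus strand), was low in VIM-rich cells of both knockouts at much the same level. VIM-rich C1-sgKMT2D cells had 5.48 CPM (3.75 to 7.74) and KRT17-rich ones 18.2 CPM (15.4 to 21.5). VIM-rich C1-sgEED cells had 4.90 CPM (3.10 to 7.35) and KRT17-rich ones 30.7 CPM (26.3 to 35.8). Levels in C1-sgControl were 34.5 CPM (18.9 to 57.9) in VIM-rich and 32.9 CPM (29.3 to 36.7) in KRT17-rich cells. KRT17-rich C1-sgEED cells were within counting error of the control, with a ratio of 0.935 (0.770 to 1.13), and KRT17-rich C1-sgKMT2D cells were below it, with a ratio of 0.555 (0.453 to 0.679). ELP5, on the other strand, has exons in the last stretch of CLDN7. It went the other way, at 92.6 CPM in VIM-rich and 75.6 CPM in KRT17-rich C1-sgEED cells, and no source used here says whether the counting kept the strands apart.

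F11R, the junctional adhesion molecule (ENSG00000158769, chromosome 1, 160995211 to 161021348, minus strand), stood highest in both control groups and lowest in the VIM-rich cells of the knockouts. It was read at 6.34 CPM (4.46 to 8.74) in VIM-rich and 16.0 CPM (13.3 to 19.0) in KRT17-rich C1-sgKMT2D cells. VIM-rich C1-sgEED cells had 6.60 CPM (4.48 to 9.37) and KRT17-rich ones 25.6 CPM (21.5 to 30.2). VIM-rich C1-sgControl cells had 39.4 CPM (22.5 to 64.1) and KRT17-rich ones 34.8 CPM (31.1 to 38.8). Its level in VIM-rich cells did not separate the knockouts, with a C1-sgKMT2D over C1-sgEED ratio of 0.961 (0.580 to 1.60).

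OCLN, occludin (ENSG00000197822, chromosome 5, 69492292 to 69558104, plus strand), was read too rarely for most comparisons, from 3 to 47 UMIs in a group. It had 1.54 CPM in VIM-rich and 1.01 CPM in KRT17-rich C1-sgKMT2D cells, 1.49 CPM in VIM-rich and 8.65 CPM in KRT17-rich C1-sgEED cells, and 7.40 CPM in VIM-rich and 4.57 CPM in KRT17-rich C1-sgControl cells. Only the KRT17-rich C1-sgEED cells stood clear of the knockouts' other groups. Their level over KRT17-rich C1-sgControl cells was 1.89 (1.22 to 2.93), while that of KRT17-rich C1-sgKMT2D cells, from 8 UMIs, was 0.220 (0.0894 to 0.474). A copy of part of OCLN, the pseudogene OCLNP1, lies on the same chromosome and has no row in the table, so the level of OCLN is uncertain.

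MARVELD2 (tricellulin, which seals the corners where several cells meet; ENSG00000152939, chromosome 5, 69415065 to 69444330, plus strand) was read at 3.43 CPM (2.09 to 5.29) in VIM-rich and 8.68 CPM (6.75 to 10.99) in KRT17-rich C1-sgKMT2D cells. In C1-sgEED it stood at 4.68 CPM (2.94 to 7.09) in VIM-rich and 14.2 CPM (11.2 to 17.7) in KRT17-rich cells, and in C1-sgControl at 12.3 CPM in VIM-rich and 14.8 CPM (12.4 to 17.5) in KRT17-rich cells. MARVELD2 was therefore lower in VIM-rich cells of both knockouts and level between KRT17-rich C1-sgEED and C1-sgControl cells (ratio 0.959, 0.716 to 1.28). Chromosome 5, which carries MARVELD2 and OCLN, was itself shifted. Its 445 measured genes had a median log2 ratio of 0.34 in VIM-rich over KRT17-rich C1-sgEED cells, against -0.02 for other chromosomes. In VIM-rich C1-sgKMT2D over C1-sgEED cells that median was -0.42, against -0.08. The part of this in the members' ratios was not tested. MARVELD3 (ENSG00000140832, chromosome 16, 71626161 to 71642114, plus strand) had 3.08 CPM (1.83 to 4.87) in VIM-rich and 9.81 CPM (7.76 to 12.2) in KRT17-rich C1-sgKMT2D cells. VIM-rich C1-sgEED cells had 2.34 CPM (1.17 to 4.19) of it and KRT17-rich ones 15.5 CPM (12.3 to 19.1), and C1-sgControl had 17.3 CPM in VIM-rich and 13.1 CPM (10.9 to 15.6) in KRT17-rich cells. Its ratio of KRT17-rich C1-sgKMT2D over C1-sgControl cells was 0.75 (0.558 to 1.00). In that comparison the 396 measured genes of chromosome 16 had a median log2 ratio of -0.63, with 54.5% of them at least 1.5-fold lower, against a median of -0.02 for other chromosomes, so a difference of MARVELD3 and one of its whole chromosome cannot be told apart.

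TJP1, the ZO-1 scaffold (ENSG00000104067, chromosome 15, 29699367 to 29968865, minus strand), had the smallest fold range over the groups, between 30.8 and 57.1 CPM. All 7 neighbouring pairs in its order of levels had overlapping intervals, as did those of OCLN, MARVELD2 and CGN. The groups were still not all level, since its lowest over its highest group had a ratio of 0.541 (0.445 to 0.655). VIM-rich C1-sgKMT2D cells had 30.8 CPM (26.5 to 35.7) and KRT17-rich ones 44.2 CPM (39.7 to 49.0). In C1-sgEED the level was 57.1 CPM (50.4 to 64.3) in VIM-rich and 53.9 CPM (47.9 to 60.5) in KRT17-rich cells. C1-sgControl had 37.0 CPM (20.7 to 61.0) in VIM-rich and 55.8 CPM (51.2 to 60.8) in KRT17-rich cells. VIM-rich C1-sgEED cells thus carried as much TJP1 as KRT17-rich control cells, and their ratio to KRT17-rich C1-sgEED cells was 1.06 (0.893 to 1.25). That ratio lay on either side of 1 among the alternatives, for example at -0.08 log2 with cells of a KRT17 share over 0.75 or under 0.25. In C1-sgKMT2D the ratio of VIM-rich over KRT17-rich cells was 0.698 (0.580 to 0.838), on the log2 scale short of 1.5-fold at -0.50. It passed 1.5-fold in 4 of 11 alternatives: at -0.87 with the stricter KRT17 share, at -0.81 with the split by 3 keratins against VIM, at -0.61 without the highest Scrublet doublet scores and at -0.60 as a mean over cells.

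INADL, a multi-PDZ scaffold of the Crumbs polarity complex (ENSG00000132849, chromosome 1, 61742406 to 62178675, plus strand), was lower in VIM-rich cells of both knockouts, as the claudins were. It was read at 9.42 CPM (7.10 to 12.3) in VIM-rich and 24.2 CPM (20.9 to 27.8) in KRT17-rich C1-sgKMT2D cells. VIM-rich C1-sgEED cells had 4.47 CPM (2.77 to 6.83) and KRT17-rich ones 25.4 CPM (21.3 to 30.0). VIM-rich C1-sgControl cells had 22.2 CPM (10.1 to 42.1) and KRT17-rich ones 33.0 CPM (29.4 to 36.8). INADL was the counted member with a higher level in VIM-rich C1-sgKMT2D than in VIM-rich C1-sgEED cells past 1.5-fold, at a ratio of 2.11 (1.25 to 3.67). CGN, cingulin (ENSG00000143375, chromosome 1, 151510510 to 151538692, plus strand), was near the limit of detection. It gave 3 UMIs in VIM-rich and 12 in KRT17-rich C1-sgKMT2D cells, 5 in VIM-rich and 19 in KRT17-rich C1-sgEED cells, and 0 in VIM-rich and 14 in KRT17-rich C1-sgControl cells. The 0 allows up to 9.09 CPM, so the VIM-rich control cells cannot be placed among the groups for CGN.

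Within each knockout 7 of the 8 counted members were at least 1.5-fold lower in VIM-rich than in KRT17-rich cells, on the scale of log2(CPM + 1), 0 were higher, and TJP1 was the exception. In C1-sgKMT2D the count was 8 under the 4 alternatives in which TJP1 passed 1.5-fold. It could also fall, since CLDN4 passed 1.5-fold there in 10 of 11 alternatives and stood at -0.41 log2 at its weakest. The background over 9314 measured genes was 7.58% lower and 6.76% higher in C1-sgKMT2D, and 14.6% lower and 10.7% higher in C1-sgEED. The members were chosen with earlier results of these data known. Here and in the comparisons below, their counts beside a background therefore describe the list and are no test of it. The members' median log2 ratio was -1.24 in C1-sgKMT2D and -2.29 in C1-sgEED, against 0.00 for all genes in both. CLDN4, MARVELD3, CLDN1, CLDN7 and INADL had C1-sgEED ratios between 0.137 and 0.176, and CLDN1, CLDN7, MARVELD3, INADL, MARVELD2 and F11R had C1-sgKMT2D ratios between 0.301 and 0.397. OCLN was lower in VIM-rich C1-sgEED cells at 0.172 (0.0657 to 0.384), while its C1-sgKMT2D ratio of 1.53 (0.525 to 4.56) rests on 9 and 8 UMIs.

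Summed over the 10 genes, VIM-rich C1-sgKMT2D cells had 70.3 CPM and KRT17-rich ones 151 CPM, a ratio of 0.465 (0.414 to 0.520). VIM-rich C1-sgEED cells had 100.1 CPM and KRT17-rich ones 301 CPM, a ratio of 0.332 (0.299 to 0.368). TJP1 alone gave 57.1 of the 100.1 CPM in VIM-rich C1-sgEED cells. Without it the ratios were 0.368 (0.317 to 0.426) in C1-sgKMT2D and 0.174 (0.149 to 0.202) in C1-sgEED. With cells of a KRT17 share over 0.75 or under 0.25 alone, the C1-sgKMT2D ratio over the 10 genes was 0.283. Among cells of at least 5000 UMIs the ratios were 0.545 in C1-sgKMT2D and 0.375 in C1-sgEED. The median share of mitochondrial UMIs was 8.43% in VIM-rich and 8.08% in KRT17-rich C1-sgKMT2D cells, and 6.78% in VIM-rich and 8.80% in KRT17-rich C1-sgEED cells, and its part in these ratios was not tested.

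**Figure D2:**
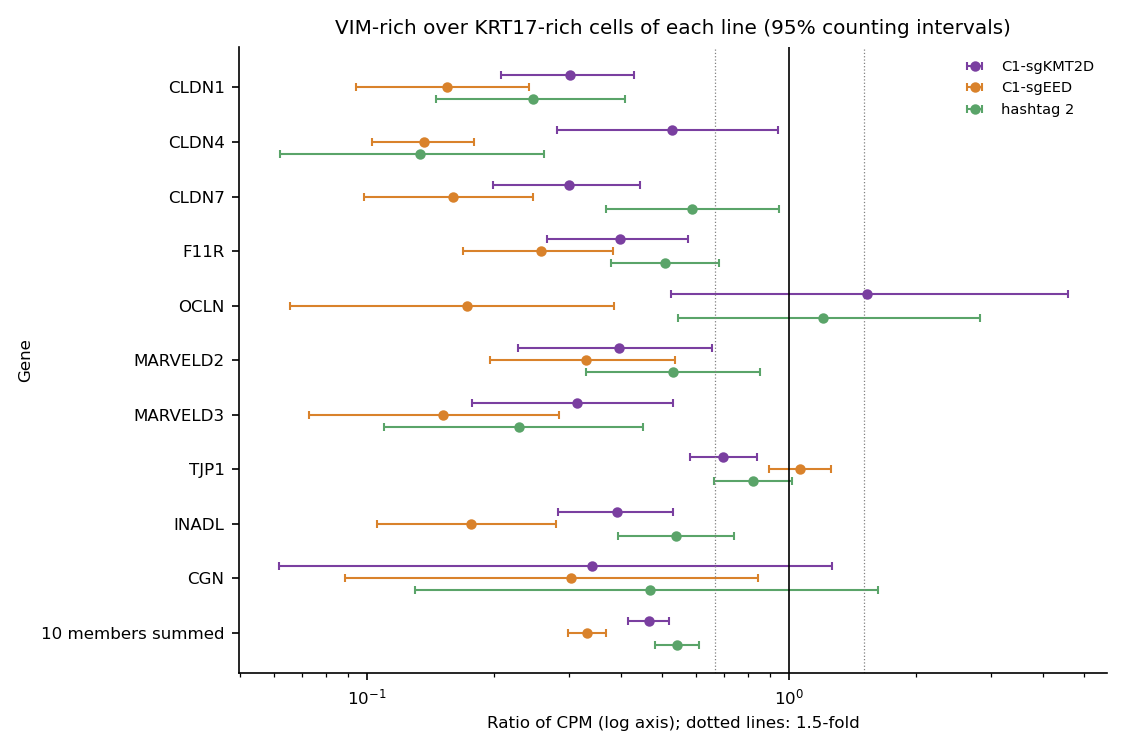
Ratio of CPM in VIM-rich over KRT17-rich cells (horizontal, log axis) for each gene and their sum, in C1-sgKMT2D (purple), C1-sgEED (orange) and hashtag 2 (green). Points are ratios of summed UMIs and bars 95% counting intervals, the solid line marks equal levels and dotted lines 1.5-fold; TJP1 lies nearest to equal levels among the well-read genes, at 0.698 in C1-sgKMT2D and 1.06 in C1-sgEED.

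In hashtag 2 cells, 7 of the 8 members were lower in VIM-rich than in KRT17-rich cells and 0 higher, with TJP1 the exception. The background was 6.86% lower and 6.81% higher, and the members' median was -0.88 log2 against 0.01 for all genes. CLDN7 passed 1.5-fold there in 8 of 11 alternatives and MARVELD2 in 10 of 11. CLDN1 was read at 3.36 CPM in VIM-rich and 13.6 CPM in KRT17-rich cells, CLDN4 at 1.54 CPM in VIM-rich and 11.5 CPM in KRT17-rich cells, and CLDN7 at 5.60 CPM in VIM-rich and 9.49 CPM in KRT17-rich cells. The summed epithelial markers of these cells stood at 5272 CPM when VIM-rich and 12647 CPM when KRT17-rich, so the claudins were lower in the range with fewer epithelial UMIs. TJP1 stood at 30.9 CPM in VIM-rich and 37.7 CPM in KRT17-rich cells, a ratio of 0.820 (0.662 to 1.02). F11R was read at 12.9 CPM in VIM-rich and 25.4 CPM in KRT17-rich cells, and INADL at 11.6 CPM in VIM-rich and 21.5 CPM in KRT17-rich cells. The sum of the 10 was 76.9 CPM in VIM-rich and 142 CPM in KRT17-rich cells.

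The comparison of KRT17-rich cells alone asks whether cells that kept the epithelial filament also kept the junction genes. Both knockouts are set against the same KRT17-rich C1-sgControl cells, so their ratios are not independent of each other. In C1-sgKMT2D 5 of the 8 members were at least 1.5-fold lower and 0 higher (background 12.8% lower and 5.86% higher), with a median of -0.76 log2 against -0.04 for all genes. In C1-sgEED 1 was lower, CLDN1, and 1 higher, CLDN4 (background 4.55% lower and 7.47% higher), with a median of -0.07 against 0.07. Summed over the 10 genes, KRT17-rich C1-sgKMT2D cells had 151 CPM and KRT17-rich C1-sgEED cells 301 CPM, against 306 CPM in KRT17-rich C1-sgControl cells. The ratios were 0.494 (0.462 to 0.529) for C1-sgKMT2D and 0.985 (0.926 to 1.05) for C1-sgEED. The level sum of C1-sgEED covers members that differed in opposite directions: CLDN1, F11R at 0.736 (0.599 to 0.900) and INADL at 0.771 (0.626 to 0.945) were lower, and CLDN4 and OCLN were higher. CGN had a ratio of 2.35 (1.12 to 5.06) there, from 19 and 14 UMIs. In C1-sgKMT2D the lower members were CLDN4, CLDN1, F11R at 0.460 (0.371 to 0.566), CLDN7 and MARVELD2 at 0.587 (0.434 to 0.789), while TJP1 at 0.791 (0.689 to 0.907) and INADL at 0.733 (0.609 to 0.880) differed by less than 1.5-fold. KRT17-rich cells of the lines were not alike in the genes that define the range: VIM stood at 2729 CPM in C1-sgKMT2D and 1167 CPM in C1-sgEED, against 1109 CPM in C1-sgControl, and KRT17 at 10064 CPM in C1-sgKMT2D and 6752 CPM in C1-sgEED, against 7579 CPM in C1-sgControl. EED stood at 20.1 CPM in the KRT17-rich C1-sgEED cells, as given above. The part of these levels in the ratios was not tested. The medians of KRT17-rich cells were 6727 UMIs in C1-sgKMT2D, 4430 in C1-sgEED and 5697 in C1-sgControl.

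**Figure D3:**
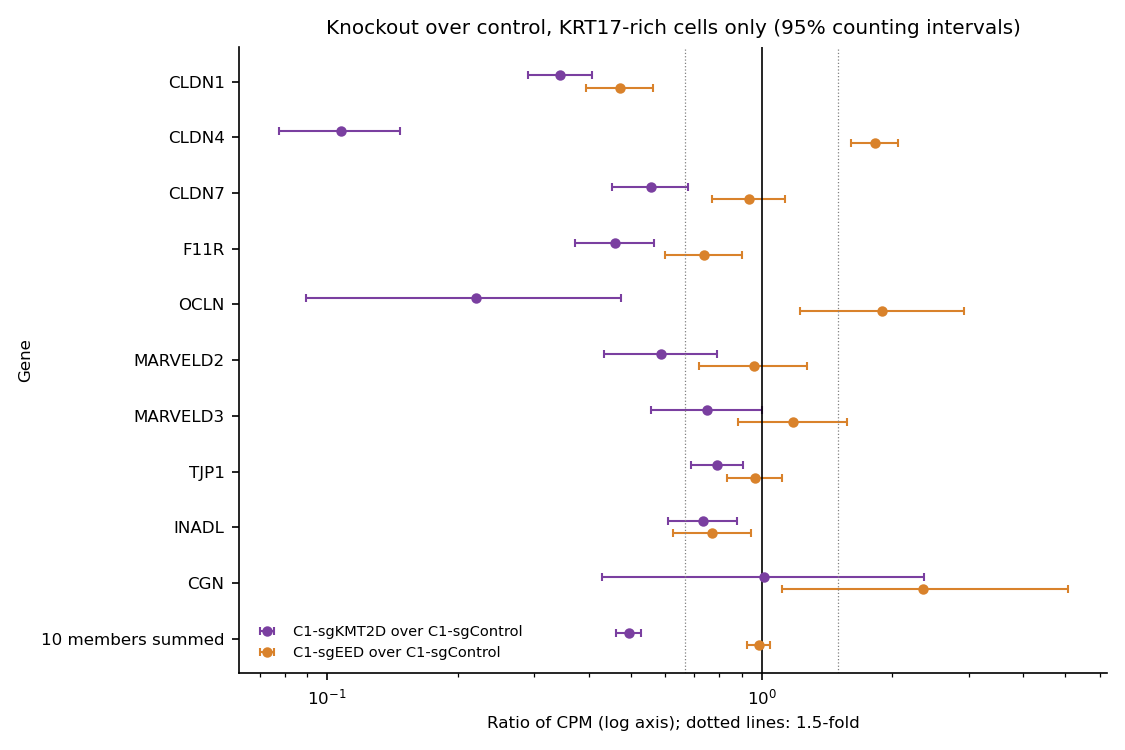
Ratio of CPM in KRT17-rich cells of a knockout over KRT17-rich C1-sgControl cells (horizontal, log axis) for each gene and their sum, C1-sgKMT2D in purple and C1-sgEED in orange. Bars are 95% counting intervals and dotted lines mark 1.5-fold; CLDN4 lies at 0.108 in C1-sgKMT2D and 1.82 in C1-sgEED, and the sums at 0.494 and 0.985.

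Set directly against each other, with no shared control, the knockouts differed most in CLDN4. Among KRT17-rich cells its C1-sgKMT2D over C1-sgEED ratio was 0.0592 (0.0425 to 0.0807), or 16.9-fold lower (12.4 to 23.5). OCLN followed at 0.116 (0.0475 to 0.249). Of the 8 members 5 were at least 1.5-fold lower in C1-sgKMT2D and 0 higher (background 12.7% lower and 2.19% higher): CLDN4, CLDN7 at 0.594 (0.472 to 0.746), MARVELD2 at 0.613 (0.436 to 0.859), F11R at 0.625 (0.487 to 0.800) and MARVELD3 at 0.635 (0.460 to 0.874). All but CLDN4 stood close to 1.5-fold, and the count was 2 with a pseudocount of 5 CPM and 3 under several other alternatives. INADL was level at 0.951 (0.760 to 1.19). Chromosome 16 had a median of -0.66 log2 in this comparison, which touches MARVELD3. Among VIM-rich cells the C1-sgKMT2D level was lower for 2 of the 8 members and higher for 1 (background 16.2% lower and 9.07% higher), with a median of 0.04 log2 against -0.10 for all genes. The lower ones were CLDN4 at 0.228 (0.125 to 0.396) and TJP1 at 0.541 (0.445 to 0.655), and the higher one INADL. The sum without TJP1 had a ratio of 0.916 (0.755 to 1.11), so it was within counting error between the VIM-rich cells of the knockouts. That sum still holds CLDN4 and INADL, which differed in opposite directions.

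Along the KRT17 share, the summed level of the members was ordered by bin in C1-sgKMT2D, nearly so in C1-sgEED and not in C1-sgControl. In 5 equal bins from the lowest to the highest share, it was 43.6, 99.1, 134, 143 and 165 CPM in C1-sgKMT2D. In C1-sgEED it was 72.9, 160, 277, 273 and 321 CPM. Most of the difference thus lay below a share of 0.6 in both. The third bin of C1-sgEED, with 150 cells, stood near the level of its KRT17-rich cells. That bin spans the bound between the ranges, so many of its cells are themselves KRT17-rich and the likeness is partly built in. Doublets within a hashtag stayed in, and their part in this bin was not tested. In C1-sgControl the first bin held 2 cells and gives no value, and the next bins held 315 (25 cells), 288, 243 and 333 CPM. TJP1 was the least graded of the members shown. It had 22.6, 40.1, 44.0, 45.2 and 44.1 CPM in C1-sgKMT2D and 52.7, 66.4, 74.2, 45.7 and 56.8 CPM in C1-sgEED. In the VIM-most bin CLDN1 was read at 2.26 CPM in C1-sgKMT2D and 2.15 CPM in C1-sgEED, CLDN4 at 1.41 CPM in C1-sgKMT2D and 3.23 CPM in C1-sgEED, and CLDN7 at 3.11 CPM in C1-sgKMT2D and 2.69 CPM in C1-sgEED. At the other end of the scale CLDN4 reached 7.88 CPM in C1-sgKMT2D, 101 CPM in C1-sgEED and 64.1 CPM in C1-sgControl. CLDN1 there reached 27.4 CPM in C1-sgKMT2D, 33.0 CPM in C1-sgEED and 71.5 CPM in C1-sgControl, so the most KRT17-biased cells of the knockouts stayed below the control for this claudin.

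**Figure D4:**
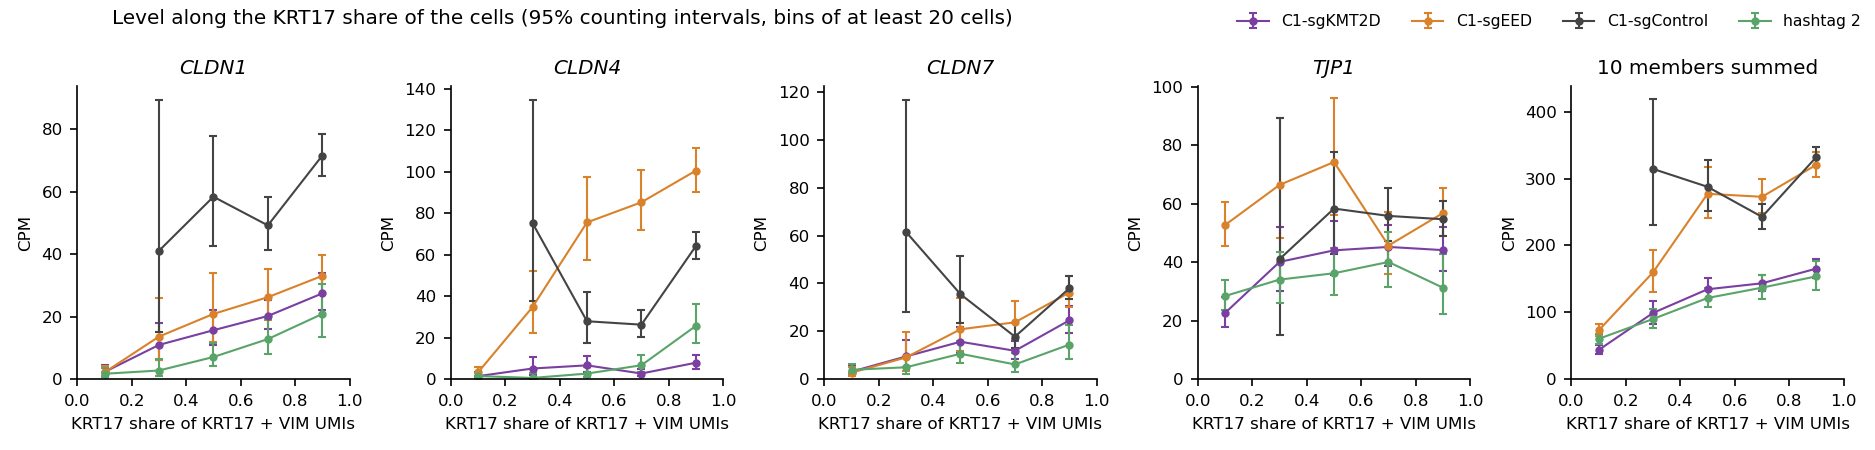
Level in CPM (vertical, linear, from 0) of CLDN1, CLDN4, CLDN7, TJP1 and the 10 genes summed in 5 bins of the KRT17 share (horizontal, 0 to 1) for C1-sgKMT2D, C1-sgEED, C1-sgControl and hashtag 2, with 95% counting intervals and bins of at least 20 cells. The summed level in the lowest and highest bins is 43.6 and 165 CPM in C1-sgKMT2D and 72.9 and 321 CPM in C1-sgEED, while CLDN4 stays under 8 CPM throughout C1-sgKMT2D.

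Read per cell, groups with lower levels also had lower shares of cells with a UMI. At these depths the share largely follows the mean level. After the thinning given next, the mean over the 10 genes was 0.129 UMIs per VIM-rich C1-sgKMT2D cell and 0.646 per KRT17-rich C1-sgControl cell. Fewer cells with these transcripts and less RNA in each cell therefore cannot be told apart. Each cell was thinned to 2000 UMIs, which left out 53 VIM-rich and 40 KRT17-rich C1-sgKMT2D cells, 104 VIM-rich and 46 KRT17-rich C1-sgEED cells and 66 KRT17-rich C1-sgControl cells. A UMI of any of the 10 genes was then found in 11.6% (9.72 to 13.6) of VIM-rich and 27.1% (24.5 to 29.8) of KRT17-rich C1-sgKMT2D cells. In C1-sgEED the shares were 16.2% (14.0 to 18.5) of VIM-rich and 42.5% (39.5 to 45.5) of KRT17-rich cells, and in KRT17-rich C1-sgControl cells the share was 44.8% (42.3 to 47.3). Without thinning they were 24.9% of VIM-rich and 59.1% of KRT17-rich C1-sgKMT2D cells, 27.5% of VIM-rich and 66.5% of KRT17-rich C1-sgEED cells, and 74.9% of KRT17-rich C1-sgControl cells. CLDN4 was found in 1.35% (0.755 to 2.21) of KRT17-rich C1-sgKMT2D cells and 14.7% (12.6 to 16.9) of KRT17-rich C1-sgEED cells, against 7.73% (6.45 to 9.17) of KRT17-rich C1-sgControl cells. Unthinned, the CLDN4 shares were 3.03% in C1-sgKMT2D, 28.0% in C1-sgEED and 16.1% in C1-sgControl KRT17-rich cells. The lines shared 1 library and free RNA could give UMIs to any cell. No cell type in the library is known to lack these genes, and the lowest group bounds that background: VIM-rich hashtag 2 cells, with a median of 4609 UMIs, gave a CLDN4 UMI in 0.158% (0.0192 to 0.571) of thinned cells. The CLDN4 share was 0.734% (0.317 to 1.44) in VIM-rich C1-sgKMT2D cells, which overlaps it, and 1.65% (0.983 to 2.60) in VIM-rich C1-sgEED cells, which lies above it. The bound holds for CLDN4 alone, and none was set for the other members. CLDN4 UMIs were clumped in the control, where 1.87% of thinned KRT17-rich cells had 2 or more, with a variance 2.04 times the mean, against 1.28 times in KRT17-rich C1-sgEED cells.

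Other tight junction genes had medians nearer to 0 than the members, but both lists were chosen with earlier results of these data known. The contrast thus describes the lists and is no result about the members. Of 59 listed, all were found and 25 reached 5 CPM, and CLDN3, TJP3, CGNL1 and JAM3 were among those that did not. In VIM-rich against KRT17-rich cells, 6 of the 25 were at least 1.5-fold lower in C1-sgKMT2D (median -0.20 log2) and 9 in C1-sgEED (median -0.32), and 0 were higher in either, against 7.58% of all genes lower in C1-sgKMT2D and 14.6% in C1-sgEED. CRB3, the Crumbs protein of the apical membrane, was read at 3.77 CPM in VIM-rich and 15.5 CPM in KRT17-rich C1-sgKMT2D cells, and at 4.26 CPM in VIM-rich and 22.5 CPM in KRT17-rich C1-sgEED cells. LSR, which recruits MARVELD2 to tricellular corners, had 10.97 CPM in VIM-rich and 25.8 CPM in KRT17-rich C1-sgKMT2D cells, and 8.30 CPM in VIM-rich and 42.7 CPM in KRT17-rich C1-sgEED cells. The polarity gene PARD6B had 4.97 CPM in VIM-rich and 11.4 CPM in KRT17-rich C1-sgKMT2D cells, and 5.11 CPM in VIM-rich and 16.9 CPM in KRT17-rich C1-sgEED cells. These were the genes past 2-fold on log2(CPM + 1) in both knockouts. The polarity kinase PRKCZ passed it in C1-sgEED, at a CPM ratio of 0.127. The adhesion molecule CXADR did so in C1-sgEED at a ratio of 0.284, and its C1-sgKMT2D ratio of 0.480 fell just short on that scale. Of the 25, 5 were lower and 0 higher in VIM-rich hashtag 2 cells (median -0.13, background 6.86% lower), with CRB3 past 2-fold at 0.336.

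**Figure D5:**
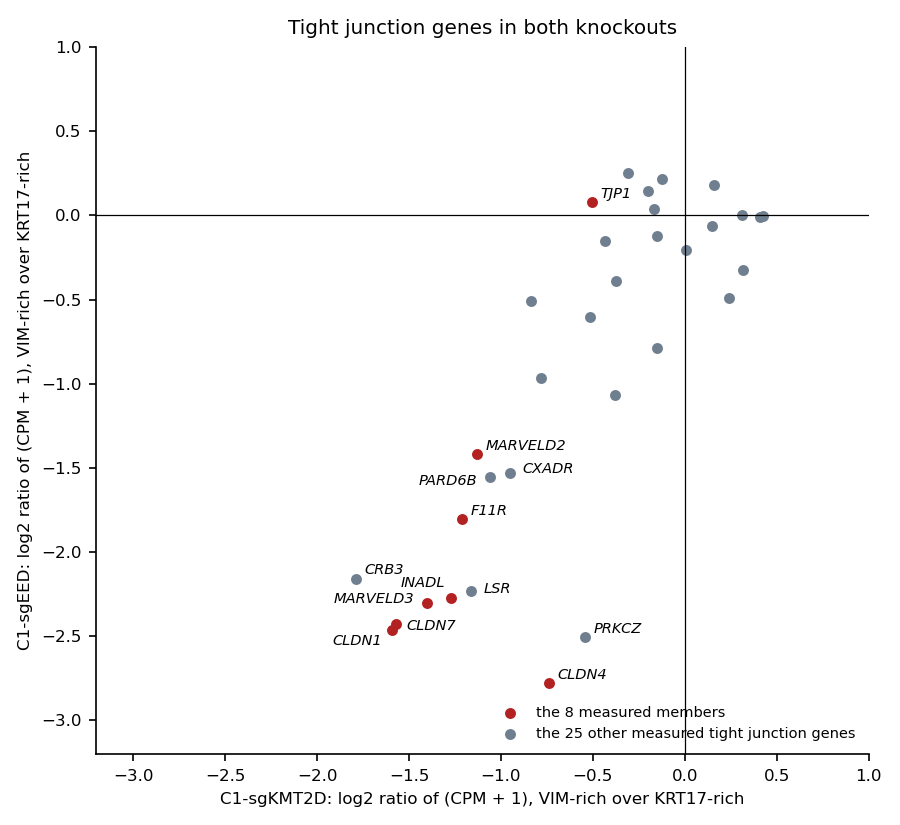
Log2 ratio of (CPM + 1) of VIM-rich over KRT17-rich cells in C1-sgKMT2D (horizontal) and C1-sgEED (vertical) for the 8 counted members (red) and the 25 other measured tight junction genes (grey), with the members and the 5 other genes lowest in C1-sgEED named. The red points have a median of -1.24 on the horizontal and -2.29 on the vertical axis and the grey ones of -0.20 and -0.32. CRB3, LSR, PARD6B, CXADR and PRKCZ lie among the red ones. Both lists were chosen with earlier results of these data known.

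Between lines the other genes were counted in the same way. Among KRT17-rich cells 5 of 25 were lower and 2 higher in C1-sgKMT2D than in C1-sgControl (median -0.20, background 12.8% lower and 5.86% higher). In C1-sgEED 1 was lower and 1 higher (median -0.03), which is near the background of 4.55% lower and 7.47% higher. Past 2-fold were CXADR, at 13.2 CPM in C1-sgKMT2D and 5.53 CPM in C1-sgControl, and MARVELD1, at 8.43 CPM in C1-sgKMT2D and 27.5 CPM in C1-sgControl. Directly compared, KRT17-rich C1-sgKMT2D cells had 3 of 25 lower and 0 higher than KRT17-rich C1-sgEED cells, and VIM-rich ones 3 lower and 3 higher. These shares are near the backgrounds of 12.7% lower among KRT17-rich cells and of 16.2% lower and 9.07% higher among VIM-rich cells. PRKCZ stood at 14.4 CPM in VIM-rich C1-sgKMT2D cells and 2.13 CPM in VIM-rich C1-sgEED cells, a ratio of 6.76 (3.50 to 14.6). INADL, also of a polarity complex, was higher in the same cells. Other polarity genes went both ways there. PRKCI was at 1.40 (1.09 to 1.82), PARD3 at 1.34 (1.02 to 1.76), CRB3 at 0.885 (0.461 to 1.71) and LIN7C at 0.518 (0.376 to 0.712).

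Over whole lines, fewer KRT17-rich cells and less RNA per cell cannot be told apart. There, 7 of 8 members were at least 1.5-fold lower in C1-sgKMT2D than in C1-sgControl (background 13.2% lower), TJP1 being the exception at 0.699 (0.620 to 0.789). MARVELD3 is among the 7, and chromosome 16, which carries it, had a median of -0.63 log2 in this comparison. Of the measured genes of that chromosome 55.3% were at least 1.5-fold lower. In C1-sgEED 4 were lower and 0 higher (background 7.27% lower and 10.4% higher): CLDN1, CLDN7, F11R and INADL. CLDN4 stood at 4.65 CPM in C1-sgKMT2D and 56.6 CPM in C1-sgEED, against 51.0 CPM in C1-sgControl. In C1-sgEED it was thus level over the whole line, at a ratio of 1.11 (0.985 to 1.25), although its levels were 12.8 CPM in VIM-rich and 93.5 CPM in KRT17-rich cells of that line. As a mean over cells, which gives shallow cells equal weight, it was at -0.24 log2 and so below the control, and among cells of at least 5000 UMIs it was past 1.5-fold higher at 0.68 log2. The summed ratios were 0.387 (0.364 to 0.411) for C1-sgKMT2D and 0.688 (0.651 to 0.727) for C1-sgEED.

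The genes whose levels over the 8 groups of line and range were most like those of the members were ranked by Pearson's r on log2(CPM + 1) among genes of at least 20 CPM. For CLDN1 they were EGFR (r = 0.989), BLCAP, PLK3, COL7A1 and CTNND1 (0.974). For CLDN4 they were MMP9 (0.956), TINAGL1, SPPL3 and IER5 (0.941), none of which was among the nearest to CLDN1. For CLDN7 they were VPS37B (0.976), EPN3, CTNND1, BLCAP and MPZL2 (0.966), and for the sum of the 10 RNF10 (0.994), CAPN1, EPN3, LIMK2 and HACD2 (0.973). With 8 points that share a library, and 4883 genes ranked, these describe the groups only.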

How the data were processed

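The lines were marked with hashtag antibodies, mixed and sequenced after a 10x Genomics 3' preparation, as the labels' protocols state. The authors deposited whole-number UMI counts per barcode for genes and hashtags. Per the file headers, Cell Ranger 3.0.2 made them, and per the submitters' processing notes the build was GRCh38. The annotation version was not given in the sources used here. Nothing in the deposited counts is normalized. The members and gene lists were chosen with earlier results of these data known.

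Of 10336 barcodes, 9193 had at least 500 genes and at most 20% mitochondrial UMIs. Hashtag calls used a Gaussian mixture with 2 components, fitted to log10(count + 1) of each hashtag, and its crossing point as the threshold (scikit-learn 1.9.0). Positive for 1 hashtag were 8346 barcodes, and 820 (8.92%) positive for several were removed as doublets. Doublets within a hashtag stayed in. Scrublet (scanpy 1.11.5) marked 0% at its automatic cutoff, so the highest 11.95% of its scores, the share of doublets expected from the hashtags, were left out as an alternative. They held 59.8% of the barcodes with several hashtags and 7.27% of those with 1. No barcode occurred more than once, and no column of another sample was used.

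Cells with at least 5 UMIs of KRT17 and VIM together were split by the KRT17 share of those UMIs. UMIs were summed per line and range and expressed as CPM of the group's gene UMIs, with exact Poisson intervals for sums, exact conditional binomial intervals for ratios and Clopper-Pearson intervals for shares, at 95% (scipy 1.17.1). UMIs and not reads were counted, and intervals cover counting error only. Cells are not replicates, each line is 1 sample, and no p-value was computed. Genes with a mean of at least 5 CPM over the 4 hashtags were counted past 1.5-fold on log2(CPM + 1), which understates differences of low genes. Shares of cells were read after thinning to 2000 UMIs with a fixed seed. All members are named. Other tight junction genes are named past 2-fold, CLDN3, TJP3, CGNL1 and JAM3 having been added afterwards as examples, and the 5 genes most like a member by Pearson's r were taken among genes of at least 20 CPM with the members left out. Some genes that these rules name are not reported here. Coordinates are from GENCODE 29 by gene ID. The scripts were tested on simulated counts. Alternatives changed the filters on cells and genes, the hashtag call, the split, the total, the pseudocount and the weighting.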

Additional observations from a re-analysis of the deposited data

Results flagged for a closer look

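CLDN4 and OCLN lay on opposite sides of the control in the knockouts. In KRT17-rich cells the level of CLDN4 over C1-sgControl was 0.108 in C1-sgKMT2D and 1.82 in C1-sgEED. For OCLN the same ratios were 0.220 in C1-sgKMT2D, from 8 UMIs, and 1.89 in C1-sgEED. Each line is 1 sample and both ratios share the control cells, so these differences were not tested.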

How the results depend on the processing

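No paired analysis was possible because each line is 1 sample of 1 pooled library and the labels give no replicate numbers. There were 13 alternatives, of which 11 were read for single members, or 9 over whole lines. Of the 950 values of single members under them, 880 stayed within the counting interval of the reported value and 70 moved past it. Of those reported past 1.5-fold with an interval clear of equal levels, 0 changed sign. MARVELD3 in VIM-rich C1-sgKMT2D over C1-sgEED cells, reported at 0.29 log2, was at -0.86 log2 with a KRT17 share over 0.75 or under 0.25. Of 303 counts and summed ratios, 272 stayed within 1.5 times the reported count or within the counting interval of the reported ratio, and the others follow. The causes of the moves were not tested.

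With genes of at least 20 CPM, 5 members were left to count. Of these, 4 were lower in VIM-rich over KRT17-rich cells of C1-sgKMT2D, C1-sgEED and hashtag 2, and 4 in whole-line C1-sgKMT2D. In KRT17-rich C1-sgKMT2D cells 3 of 5 were lower over C1-sgControl cells and 2 of 5 over C1-sgEED cells. The share over all genes was not taken under the alternatives. The direct comparison of KRT17-rich C1-sgKMT2D over C1-sgEED cells also gave 2 of 8 with a pseudocount of 5 CPM. It gave 3 of 8 with the strict cell filter, with a KRT17 share over 0.75 or under 0.25 and with cells of at least 5000 UMIs. The count was also 3 of 8 without the highest Scrublet scores, an alternative chosen after seeing the data. Counts of higher members in KRT17-rich C1-sgEED over C1-sgControl cells were 2 of 9 with a total that leaves out mitochondrial and ribosomal genes. With no filter on low genes the count there was 3 of 10. In VIM-rich C1-sgKMT2D over C1-sgEED cells the counts of higher members were 2 of 8 with the strict cell filter and as a mean over cells. With that total the count there was 2 of 9. In whole-line C1-sgEED 1 of 8, CLDN4, was higher with cells of at least 5000 UMIs.

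The summed ratio of VIM-rich over KRT17-rich cells was 0.283 in C1-sgKMT2D, 0.233 in C1-sgEED and 0.407 in hashtag 2 with the stricter KRT17 share, and 0.320 in C1-sgKMT2D, 0.246 in C1-sgEED and 0.446 in hashtag 2 when split by KRT5, KRT6A and KRT17 against VIM. Among cells of at least 5000 UMIs it was 0.545 in C1-sgKMT2D and 0.375 in C1-sgEED. The summed ratio over C1-sgControl in those cells was 1.05 in KRT17-rich C1-sgEED, 0.830 in whole-line C1-sgEED and 0.437 in whole-line C1-sgKMT2D. As a mean over cells it was 0.916 in KRT17-rich C1-sgEED, 0.592 in whole-line C1-sgEED and 0.340 in whole-line C1-sgKMT2D. CLDN4 in KRT17-rich cells over C1-sgControl stayed between -3.19 and -2.42 log2 in C1-sgKMT2D and between 0.64 and 1.13 log2 in C1-sgEED. Depth limits OCLN and CGN, and the 68 VIM-rich C1-sgControl cells, for which no difference within the control can be judged.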
